A study of Homo sapiens with 6 samples.

Results

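The set of genes described here is the complement system with its regulators and the acute-phase proteins of blood plasma, measured in SUM149 cells with and without an siRNA pool against TIG1. It holds 41 named genes, of which 40 were among the 19775 genes tested. A gene entered if the array carried a probe set annotated to that 1 symbol, and the probe set with the highest mean signal stood for it. VTN, the gene of vitronectin, was matched by no such probe set and was not analysed here. The members fall into classes of 8 classical and lectin pathway genes, 4 genes of C3 and the alternative pathway, 7 terminal pathway genes, 10 measured regulators and receptors, and 11 acute-phase genes.

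SUM149 is an established human cell line of inflammatory breast cancer, grown here in Ham's F-12 medium with fetal bovine serum, insulin and hydrocortisone, a glucocorticoid, in both groups. In the siControl group (3 arrays) cells received a non-targeting pool of the siGENOME line, and in the siTIG1 group (3 arrays) an ON-TARGET Plus pool against TIG1, whose current symbol is RARRES1, each at 200 nmol/L with oligofectamine. The comparison asks which transcripts differ after transfection against TIG1. Target and siRNA product line cannot be told apart in this design, no time after transfection is given in the sources used here, and no label says that replicates came from separate cultures. The p-values therefore reflect the spread of these arrays alone, which may be technical.

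Complement is a cascade of plasma and membrane proteins that marks surfaces for uptake or lysis. The C1 complex (C1q with the proteases C1r and C1s) starts the classical pathway, MASP proteases start the lectin pathway, and factors B and D with properdin run the alternative loop, all of which meet at cleavage of C3. C5 to C9 then build the membrane attack complex, while factor I with its cofactors, C1 inhibitor, CD46, CD55, CD59 and clusterin hold the cascade back. The liver makes most of the plasma pool, but epithelial cells and macrophages transcribe several components, and cytokines such as IL-6, IL-1 and interferon-gamma are known to induce complement and acute-phase genes through STAT, C/EBP and NF-kB factors.

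Of the 40 measured members, 6 rose in the siTIG1 group and none fell: the C1 proteases C1R and C1S, the regulators CFI and CLU, the receptor C3AR1 and the acute-phase serpin SERPINA3. The threshold was a limma adjusted p of 0.05 over all genes tested, by which 3.15% of all genes were higher and 4.17% lower, 7.32% in either direction. At an unadjusted p under 0.05 the same test gave 6 members higher and 0 lower, against 10.5% and 11.4% of all genes. Among the members 15.0% were called higher, and the median difference was 0.04 on the log2 scale, against 0.02 over all genes. All 3 siTIG1 arrays lay above all 3 siControl arrays in 10 members (25%) and below them in 1, LCN2 (2.5%), whereas over all genes these shares were 16.6% and 15.4%. Members were chosen for their function with earlier results of these arrays known, so these shares are a description.

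**Figure D1:**
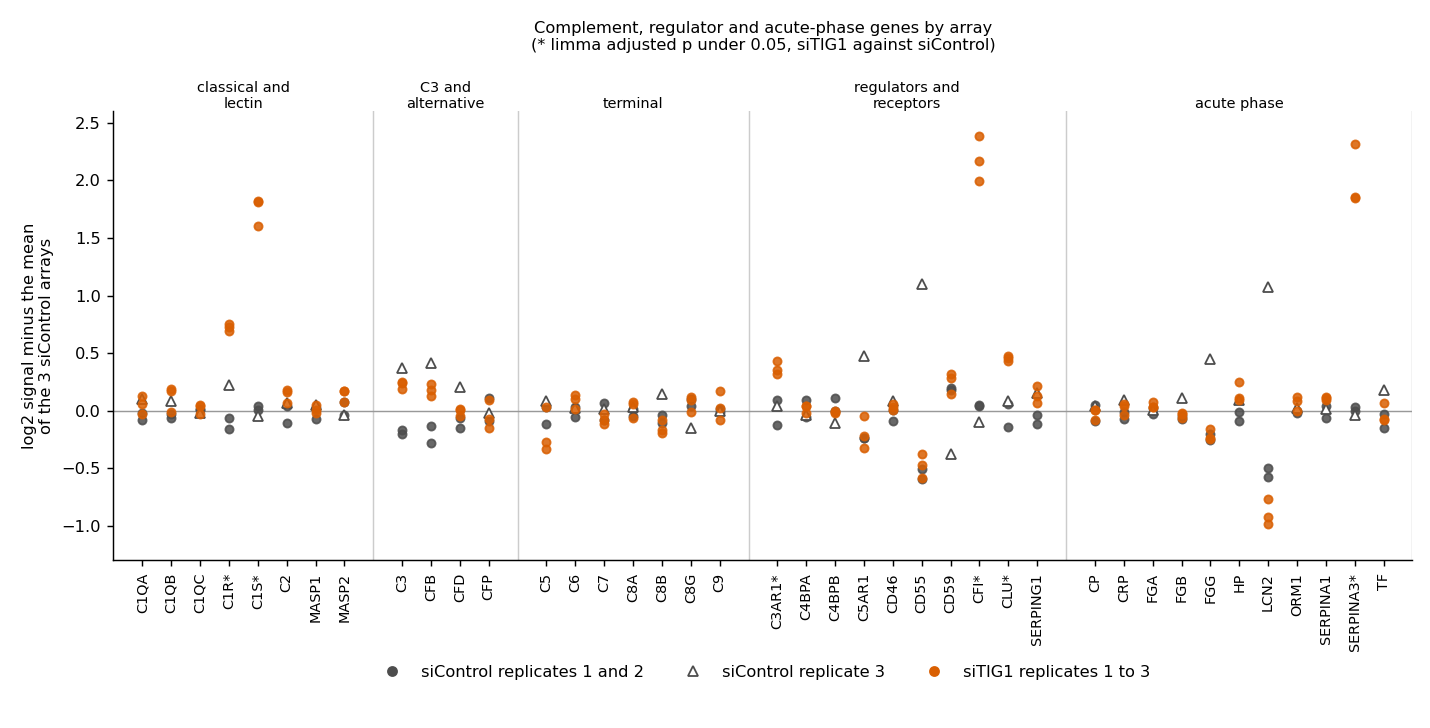
Log2 signal of each of the 40 measured members on each of the 6 arrays, minus the mean of the 3 siControl arrays for that gene (vertical axis), grouped by class (horizontal axis). Orange points are siTIG1 arrays, filled grey points siControl replicates 1 and 2, and open triangles siControl replicate 3. C1S, CFI and SERPINA3 stand apart on all siTIG1 arrays, whereas CD55 and LCN2 are high on siControl replicate 3.

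Array siControl replicate 3 stood apart from every other array. Over all probe sets it correlated with the other controls at 0.985 and 0.985, against 0.998 between those 2 controls and 0.998 to 0.999 among the siTIG1 arrays. It also had the largest 3' minus 5' difference of the ACTB control probe sets, a measure that grows as RNA degrades, at 3.21, against 2.62 to 2.73 in siControl replicates 1 and 2 and 2.14 to 2.34 in the siTIG1 group. For the GAPDH control probe sets this difference was 0.57 on siControl replicate 3 and 0.46 to 0.48 on every other array of both groups. The part of RNA quality in the results was not tested. TIG1 itself read 12.65, 12.61 and 13.74 on siControl replicates 1, 2 and 3 and 12.69, 11.95 and 11.87 in the siTIG1 group. Its difference was -0.83 ± 0.36 (SE, limma adjusted p = 0.25). On this probe set the array labelled siTIG1 replicate 1 lay at the level of siControl replicates 1 and 2. On the other 2 TIG1 probe sets every siTIG1 array lay below every control, with differences of -1.24 and -1.28 that did not pass (limma adjusted p = 0.23 and 0.20 over all probe sets). These 2 passed without siControl replicate 3, at -0.68 and -0.75 (limma adjusted p = 0.043 and 0.024), and the first, at -0.46, did not (limma adjusted p = 0.12 over all genes). On these 2 probe sets too siTIG1 replicate 1 lay near the controls, at 11.72 and 10.72, against 11.88 and 10.92 on siControl replicate 2. The other siTIG1 arrays read 10.95 on the former and 9.96 to 10.03 on the latter. Of all arrays siTIG1 replicate 1 had the highest C1S, CFI and SERPINA3 signals, and their relation to the TIG1 level was not tested. Values below are from all 6 arrays unless siControl replicate 3 is said to be left out, and array values run from replicate 1 to replicate 3.

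The promoters of 4 of the 6 members that rose are shown first, and C1S and CLU had no promoter window. These genes were picked because they passed as higher, so their common direction is no result. Promoter windows from RefSeq (GRCh38.p14) matched 33 of the 41 genes, and the 250 bases upstream of the annotated start are printed for C1R, CFI, C3AR1 and SERPINA3, 5′ to 3′ on the gene's own strand. Capitals mark matches to any of 6 motifs searched on both strands.
C1R, chr12:7092446-7092695, minus strand: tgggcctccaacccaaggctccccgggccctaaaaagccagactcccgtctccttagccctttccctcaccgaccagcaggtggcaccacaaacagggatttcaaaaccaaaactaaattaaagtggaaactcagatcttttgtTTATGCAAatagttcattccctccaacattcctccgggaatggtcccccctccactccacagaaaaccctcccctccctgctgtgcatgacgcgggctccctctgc
CFI, chr4:109802000-109802249, minus strand: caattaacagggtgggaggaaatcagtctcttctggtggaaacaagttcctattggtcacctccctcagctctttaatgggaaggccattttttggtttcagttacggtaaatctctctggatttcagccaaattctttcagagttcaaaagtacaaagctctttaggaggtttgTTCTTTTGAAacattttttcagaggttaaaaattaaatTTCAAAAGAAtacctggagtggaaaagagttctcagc
C3AR1, chr12:8066360-8066609, minus strand: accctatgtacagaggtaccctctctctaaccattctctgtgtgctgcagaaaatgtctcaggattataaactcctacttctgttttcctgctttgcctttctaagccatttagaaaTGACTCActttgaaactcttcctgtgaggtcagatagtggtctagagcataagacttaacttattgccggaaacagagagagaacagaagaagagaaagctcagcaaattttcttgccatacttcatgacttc
SERPINA3, chr14:94612141-94612390, plus strand: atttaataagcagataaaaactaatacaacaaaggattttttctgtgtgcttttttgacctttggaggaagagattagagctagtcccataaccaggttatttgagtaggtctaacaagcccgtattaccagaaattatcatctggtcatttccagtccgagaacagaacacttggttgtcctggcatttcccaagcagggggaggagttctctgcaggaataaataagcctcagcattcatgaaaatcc
The 6 motifs, named for the factors whose known binding sites they resemble, were TTCNNNGAA and the same with a spacer of 4 N for STAT factors, TTGCNNAA for C/EBP, GGG and TTCC around a spacer of 3 N for NF-kB, TGANTCA for AP-1, and GAAA given 2 times around a spacer of 2 N for the interferon-stimulated response element. NF-kB letters occurred in 5.67% of all windows and those of the interferon element in 3.02%, and in none of the 4 printed windows. The CFI window held the wider STAT spacing at 2 places, TTCTTTTGAA from 75 bases and TTCAAAAGAA from 37 bases upstream of the start, a motif found in 5.38% of all 35116 windows. In the C1R window the only match was a C/EBP one, TTATGCAA, from 106 bases upstream (9.05% of all windows hold this motif). RefSeq gives C1R 2 starts, and the window of the other one held the narrower STAT spacing as TTCCTGGAA from 86 bases upstream (6.57% of windows) and the C/EBP letters TTGCTGAA from 167 bases upstream. C3AR1 held 1 AP-1 match, TGACTCA, which ends 127 bases upstream (6.57% of windows). None of these letters occurred in the SERPINA3 window. No matches overlap in the printed windows. The same letters occurred upstream of members that did not pass with all arrays. These included C6 and CFP for the wider STAT spacing and C7 and MASP2 for the narrower one. For C/EBP they included C6, FGB and TF, and for AP-1 they were CD59 and LCN2. Of 48 windows of members, 11 (9 genes) held the narrower STAT spacing and 3 (3 genes) the wider one. C/EBP letters were in 14 (10 genes), AP-1 in 3, NF-kB in 2 and the interferon element in 1. Windows of the same gene can overlap. A match describes letters only, and binding was not measured.

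Within the classical and lectin class, 2 of 8 genes rose (25%, against 3.15% of all genes) and 6 did not pass, and the median difference was 0.13. C1S, the protease of the C1 complex that cleaves C4 and C2, gave log2 signals of 8.20, 8.23 and 8.15 on the siControl arrays and 10.02, 9.80 and 10.00 on the siTIG1 arrays. Every siTIG1 array lay far above every control, and siControl replicate 3 read like the other controls. The rise was 3.36-fold (log2 1.75 ± 0.07 SE, limma adjusted p = 0.00080), and 1.72 ± 0.07 without siControl replicate 3. A second, dimmer C1S probe set differed by 0.25 ± 0.07 (SE) and did not pass over all probe sets (limma adjusted p = 0.13). It passed without siControl replicate 3, at 0.26 (limma adjusted p = 0.045 over all probe sets).

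C1R, the protease that activates C1s, read 7.92, 8.01 and 8.29 on the siControl arrays and 8.80, 8.83 and 8.76 on the siTIG1 arrays. Its control values were spread, with replicate 3 nearest to the siTIG1 level, and the groups did not overlap. C1R rose 1.65-fold (log2 0.72 ± 0.10 SE, limma adjusted p = 0.013), and by 0.83 ± 0.05 (SE) without siControl replicate 3. The call was lost without siControl replicate 2 and without each siTIG1 array in turn (limma adjusted p = 0.056 to 0.080). C1R and C1S are neighbours on chromosome 12, and C1RL, the next protein-coding gene, which encodes a C1r-like protease, differed by 0.01 ± 0.08 (SE), with a 95% interval from -0.19 to 0.21.

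The subunits of C1q, the recognition part of C1, did not follow its proteases. C1QA differed by 0.05, C1QB by 0.11 and C1QC by 0.02, with 95% intervals that reached from -0.12 to 0.30 at the widest. C2, the protease that pairs with C4, read 8.33, 8.48 and 8.50 against 8.62, 8.60 and 8.51, higher on every siTIG1 array but by only 0.14 ± 0.07 (SE, limma adjusted p = 0.30). Of the lectin pathway proteases MASP1 differed by 0.01 and MASP2 by 0.14. The probe sets of C2, MASP1 and MASP2 disagreed in sign, from -0.10 to 0.14 for C2, -0.07 to 0.10 for MASP1 and -0.07 to 0.14 for MASP2, and none passed.

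**Figure D2:**
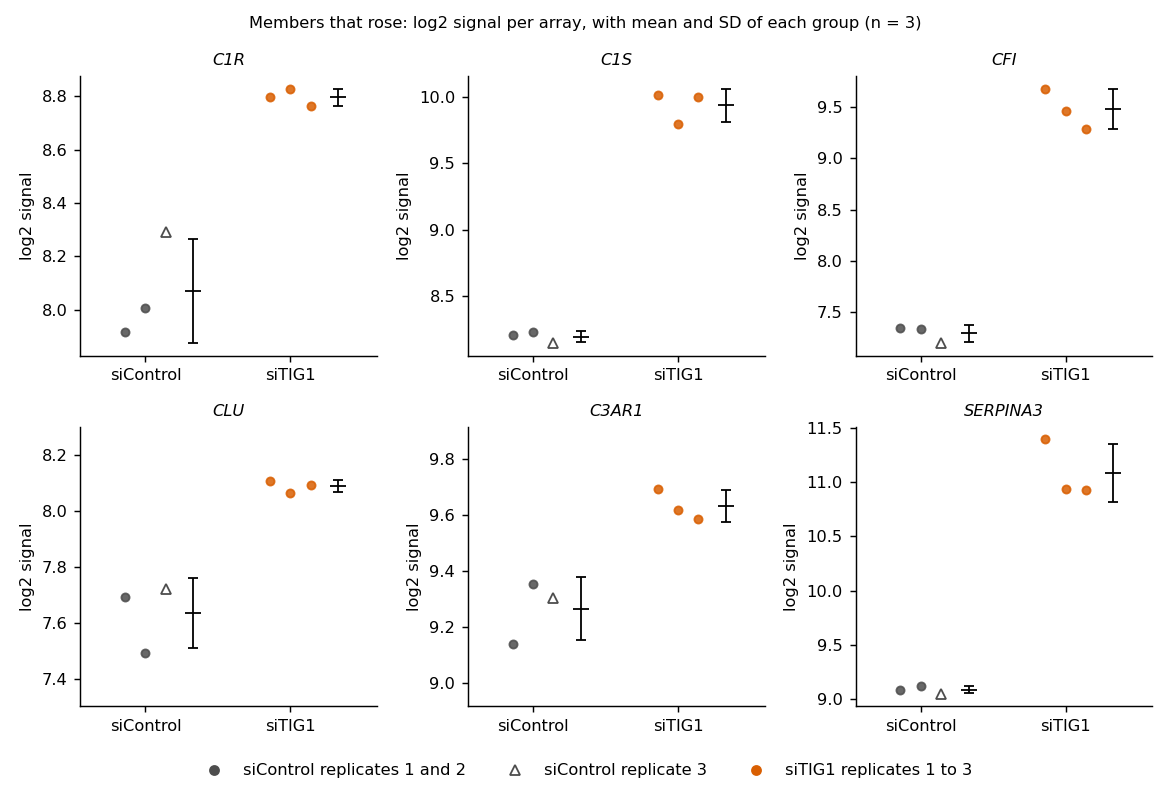
Log2 signal per array (vertical axis, a separate scale for each gene that does not start at 0) of the 6 members that rose, for siControl and siTIG1 (horizontal axis). Points are arrays, the open triangle is siControl replicate 3, and the bar beside each group is its mean ± SD over 3 arrays. In each panel all siTIG1 arrays lie above all siControl arrays, by the most in CFI, SERPINA3 and C1S.

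None of the 4 genes of C3 and the alternative pathway passed with all arrays, and the result for C3 and CFB turned on siControl replicate 3. With all arrays 7.32% of all genes passed. C3, on whose cleavage all pathways meet, read 12.99, 12.96 and 13.53 on the siControl arrays and 13.35, 13.40 and 13.41 on the siTIG1 arrays. The siTIG1 arrays lay between the first 2 controls and the third. The difference was 0.23 ± 0.15 (SE, limma adjusted p = 0.46), with a 95% interval from -0.15 to 0.60. Without siControl replicate 3, C3 was 1.33-fold higher (0.41 ± 0.05 SE, limma adjusted p = 0.00033).

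CFB, factor B of the alternative convertase, had the same pattern, with 9.04, 9.19 and 9.74 on the siControl arrays and 9.50, 9.45 and 9.55 on the siTIG1 arrays. With all arrays the difference was 0.18 ± 0.18 (SE, limma adjusted p = 0.63), and without siControl replicate 3 it was 0.38 ± 0.06 (SE, limma adjusted p = 0.0016). A dimmer CFB probe set differed by -0.08. Over all genes 12.3% were called higher and 14.9% lower without that array, so calls were then more common in general. CFD, the protease that activates factor B, differed by -0.01 and CFP, properdin, by -0.04, and neither passed with or without that array.

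The 7 terminal pathway genes, which encode the parts of the membrane attack complex, did not pass in either direction, with or without siControl replicate 3. With all arrays 7.32% of all genes passed, and without that array 12.3% were higher and 14.9% lower. The differences of the 7 terminal genes ran from -0.19 (C5) to 0.09 (C6), with a median of 0.02, and their 95% intervals stayed between -0.46 and 0.26. C5, from which the anaphylatoxin C5a is cut, read 7.42, 7.27 and 7.46 against 7.42, 7.05 and 7.11. Its siTIG1 replicate 1 lay among the controls. C8B differed by -0.15, C7 by -0.08, C8A by 0.02, C8G by 0.06 and C9 by 0.04. The files carry no detection call, so it is not shown that these signals lie above background, and a low signal can hide a difference.

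Among 10 measured regulators and receptors 3 passed, all of them higher (30%, against 3.15% of all genes), and 7 did not, with a median of 0.08. CFI, factor I, the plasma protease that cleaves C3b and C4b, showed the largest difference of any member. It read 7.35, 7.34 and 7.20 on the siControl arrays and 9.68, 9.47 and 9.29 on the siTIG1 arrays. The controls were close together, and the lowest siTIG1 array was far above them. The rise was 4.55-fold (log2 2.19 ± 0.11 SE, limma adjusted p = 0.0011), and 2.14 ± 0.10 (SE) without siControl replicate 3. A second CFI probe set also passed, at 0.63 ± 0.06 (SE), with a limma adjusted p of 0.0058 in the fit to every probe set. Because the control signal is not shown to lie above background, the size of the rise can be too small.

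CLU, clusterin, a secreted chaperone that also blocks the membrane attack complex, read 7.69, 7.49 and 7.72 against 8.11, 8.07 and 8.09. The siTIG1 arrays were tightly grouped and above every control. CLU rose 1.37-fold (log2 0.45 ± 0.07 SE, limma adjusted p = 0.019), and by 0.49 ± 0.07 (SE) without siControl replicate 3. Of its 4 probe sets 3 were higher and 2 passed, and the fourth differed by -0.02. The mean of the 4 gave 0.28 and passed (limma adjusted p = 0.041). The call was lost without siControl replicate 1 and without each siTIG1 array in turn (limma adjusted p = 0.057 to 0.10).

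C3AR1, the receptor of the anaphylatoxin C3a, read 9.14, 9.36 and 9.30 on the siControl arrays and 9.70, 9.62 and 9.58 on the siTIG1 arrays. The groups were apart, though by less than in the other members that rose. The rise was 1.29-fold (log2 0.37 ± 0.07 SE, limma adjusted p = 0.037), or 0.39 ± 0.07 (SE) without siControl replicate 3, and the call was kept only without siControl replicate 3 when single arrays were left out (highest limma adjusted p = 0.15). C3AR1 is also known from myeloid cells. None of 10 measured leukocyte marker genes passed, and their mean log2 level ran from 7.45 to 7.61 on the siControl arrays and from 7.59 to 7.60 on the siTIG1 arrays. Without siControl replicate 3, 3 of them were higher (30%, against 12.3% of all genes) and none lower (against 14.9%). These were CD14 by 0.80 (limma adjusted p = 1.58e-05), LCP1 by 0.22 (limma adjusted p = 0.027) and TYROBP by 0.21 (limma adjusted p = 0.046). CSF1R was higher on every siTIG1 array, by 0.20 with all arrays, and LYZ lower, by -0.17, without passing. The part of these markers in the C3AR1 result was not tested. The defining marker PTPRC, the gene of the leukocyte antigen CD45, read 6.65 to 6.77 and 6.55 to 6.69.

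**Figure D3:**
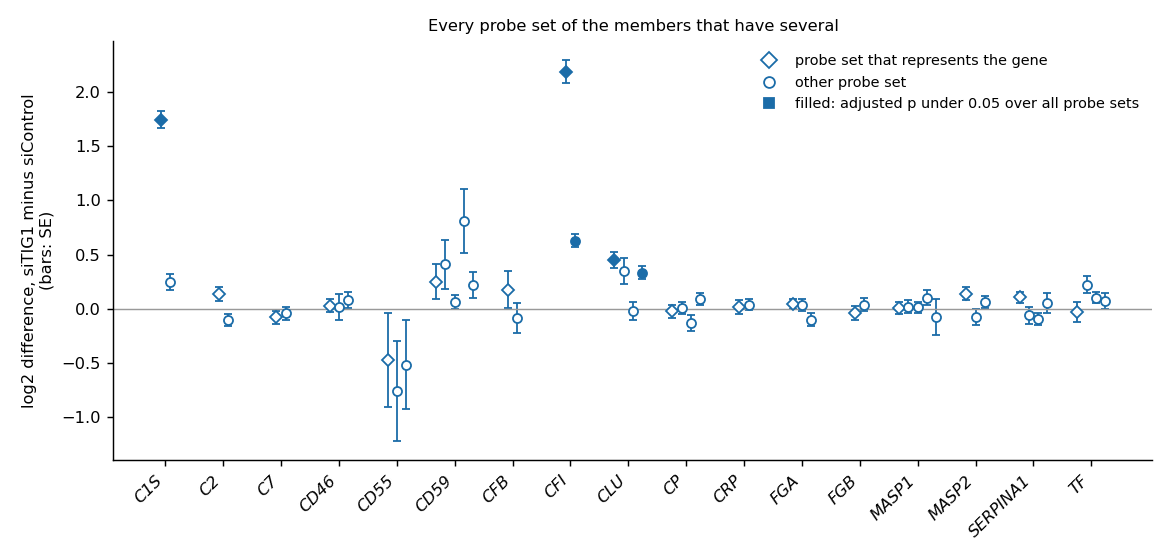
Log2 difference, siTIG1 minus siControl (vertical axis), of every probe set of the members that have several (horizontal axis), with SE bars from limma. Diamonds are the probe sets that stand for the gene, and filled symbols passed at an adjusted p of 0.05 over all probe sets. Both CFI probe sets and 2 of 4 CLU probe sets passed, 1 of 2 did for C1S, and the 3 CD55 probe sets had SEs of 0.41 to 0.46.

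The membrane regulators that protect host cells did not pass. CD46, a cofactor for factor I on the cell surface, read 13.02, 13.12 and 13.20 against 13.15, 13.12 and 13.17. The groups overlapped closely, and the difference of 0.03 ± 0.06 (SE, limma adjusted p = 0.82) had a 95% interval from -0.12 to 0.18. CD55, which speeds the decay of the convertases, read 11.57, 11.66 and 13.27 on the siControl arrays and 11.79, 11.58 and 11.70 on the siTIG1 arrays. Only siControl replicate 3 was high, and all 3 CD55 probe sets read 1.55 to 1.73 above the other controls there. The difference of -0.47 ± 0.44 (SE, limma adjusted p = 0.60) became 0.07 ± 0.07 (SE, limma adjusted p = 0.48) without that array.

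CD59, which blocks assembly of the membrane attack complex, moved the opposite way on that array. It read 13.59, 13.61 and 13.04 against 13.56, 13.73 and 13.70. All 5 CD59 probe sets were lower on siControl replicate 3 than on the other controls, by 0.12 to 1.12. CD59 differed by 0.25 ± 0.16 (SE, limma adjusted p = 0.43), and by 0.06 without that array (limma adjusted p = 0.50). The CD59 probe set with the largest difference, 0.81, did not pass with all arrays (limma adjusted p = 0.21 over all probe sets). Without siControl replicate 3 it passed at 0.44 (limma adjusted p = 0.0026 over all probe sets), and the other CD59 probe sets did not.

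SERPING1, the C1 inhibitor that acts on C1r and C1s, read 6.95, 7.03 and 7.22 against 7.13, 7.28 and 7.20. Its difference of 0.14 ± 0.08 (SE, limma adjusted p = 0.41) passed only without siControl replicate 3 (0.21 ± 0.06 SE, limma adjusted p = 0.026). C4BPA and C4BPB, the chains of C4b-binding protein, differed by 0.02 and -0.01. C5AR1, the C5a receptor, read 5.24, 5.24 and 5.95 against 5.43, 5.15 and 5.26, with replicate 3 again the high control, and differed by -0.19 ± 0.20 (SE).

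Of the 11 acute-phase genes 1 passed, SERPINA3, which was higher (9.09%, against 3.15% of all genes), and 10 did not, with a median of 0.02. SERPINA3, alpha-1-antichymotrypsin, which inhibits cathepsin G, read 9.08, 9.12 and 9.05 on the siControl arrays and 11.40, 10.94 and 10.93 on the siTIG1 arrays. The 3 controls were nearly equal, and siTIG1 replicate 1 was the highest array. SERPINA3 rose 4.02-fold (log2 2.01 ± 0.13 SE, limma adjusted p = 0.0021), and by 1.99 ± 0.12 (SE) without siControl replicate 3. C1S, CFI and SERPINA3 kept their calls with any 1 array left out (highest limma adjusted p = 0.015, 0.022 and 0.025).

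LCN2, lipocalin 2, which binds bacterial siderophores, was the only member whose siTIG1 arrays all lay below the controls. It read 10.87, 10.79 and 12.44 on the siControl arrays and 10.60, 10.44 and 10.38 on the siTIG1 arrays. The distance to the nearest control was small, and siControl replicate 3 stood 1.61 above the other controls. LCN2 differed by -0.89 ± 0.44 (SE, limma adjusted p = 0.30). Without siControl replicate 3 the difference shrank to -0.36 ± 0.07 (SE) and passed (limma adjusted p = 0.0046).

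The other acute-phase genes differed little. SERPINA1, alpha-1-antitrypsin, a close relative of SERPINA3, was higher on every siTIG1 array by 0.11 ± 0.05 (SE, limma adjusted p = 0.28), but 2 of its 4 probe sets were lower. The fibrinogen chains FGA, FGB and FGG differed by 0.05, -0.04 and -0.21. FGG read 6.57, 6.52 and 7.23 on the siControl arrays against 6.53 to 6.61 on the siTIG1 arrays, so its difference came with 1 high control, and it was 0.01 without that array. HP, haptoglobin, differed by 0.15 ± 0.07 (SE, limma adjusted p = 0.30) and passed only without siControl replicate 3 (0.20 ± 0.06 SE, limma adjusted p = 0.045). ORM1 differed by 0.07, CRP by 0.02, the copper protein gene CP by -0.02 and TF, the gene of transferrin, which falls in the acute phase, by -0.03. Probe sets of CP, FGA, FGB and TF disagreed in sign, with differences from -0.13 to 0.22, and none passed. Without siControl replicate 3 a dimmer TF probe set was higher by 0.29 (limma adjusted p = 0.013 over all probe sets).

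**Figure D4:**
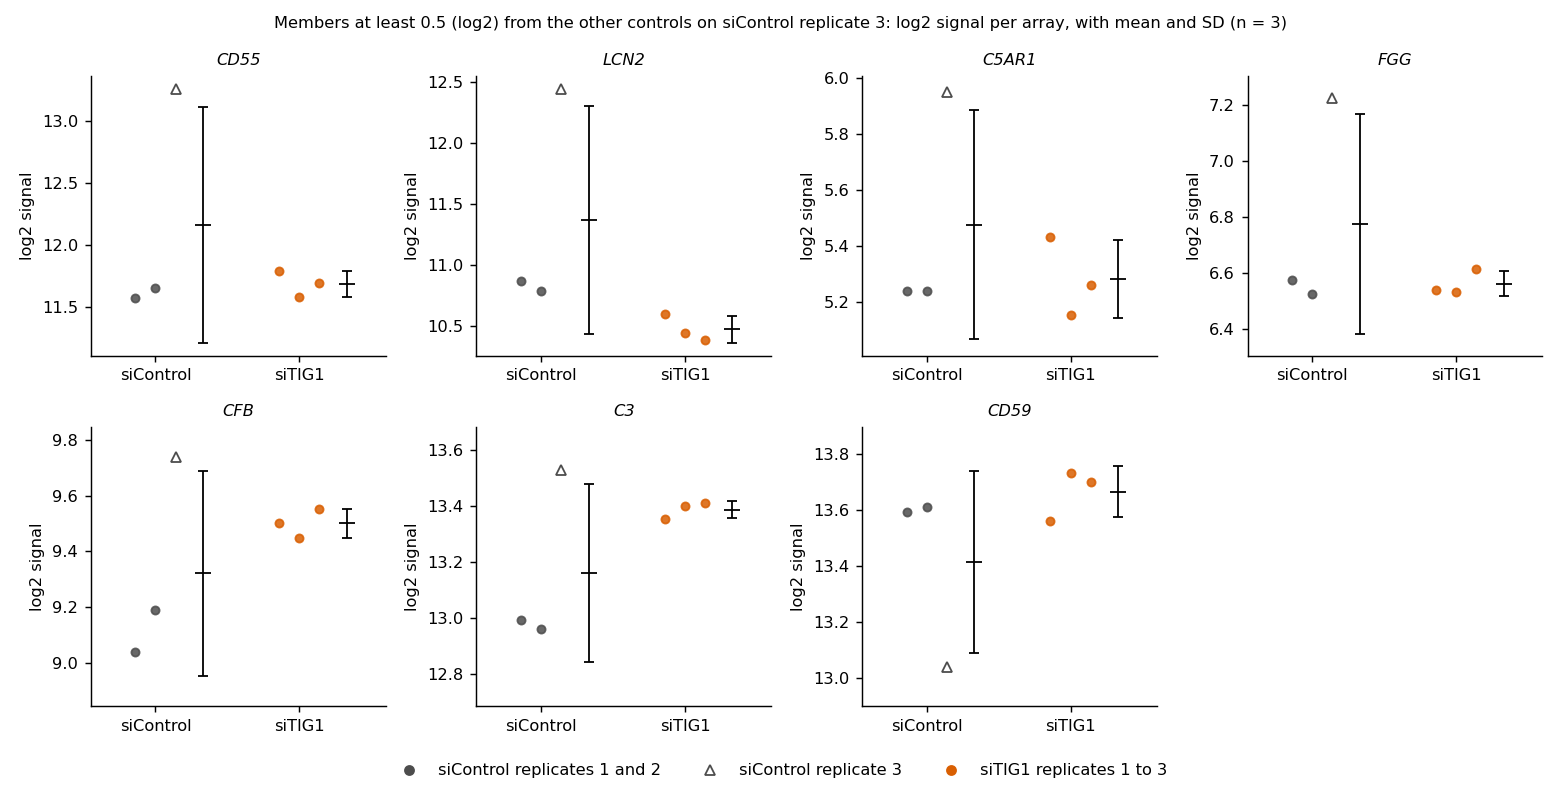
Log2 signal per array (vertical axis, a separate scale for each gene that does not start at 0) of the 7 members for which siControl replicate 3 (open triangle) lay at least 0.5 from the mean of the other controls. Points are arrays by group (horizontal axis), and bars are the mean ± SD over 3 arrays. CD55, LCN2, C5AR1, FGG, CFB and C3 were higher on that array and CD59 was lower.

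Leaving out siControl replicate 3 raised the count from 6 to 10 members higher and from 0 to 1 lower. These were 25% and 2.5% of the measured members, against 12.3% and 14.9% of all genes. The added rises were C3, CFB, SERPING1 and HP, and the fall was LCN2. In 7 members (17.5%) that array lay at least 0.5 from the mean of the other controls on the log2 scale, and in 14% of all genes. Without any 1 siTIG1 array 3 members were higher, C1S, CFI and SERPINA3, and without siControl replicate 1 or replicate 2 the count was 4.

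Further complement genes outside the set did not pass. Of 31 listed genes, which included complement receptors, ficolins, collectins and factor H-related genes, 25 were measured, and 0 were higher and 0 lower by limma, with a median of 0.06. At an unadjusted p under 0.05, 2 were higher and 0 lower. Of 27 further acute-phase and liver plasma genes 22 were measured, and again 0 were higher and 0 lower, with 0 higher and 1 lower at an unadjusted p under 0.05. Without siControl replicate 3, 1 and 2 genes of these lists were higher (4% and 9.09%, against 12.3% of all genes). Hepatocyte markers, 12 of 12 measured, gave 0 calls in either direction, and their mean log2 level was 7.79 to 7.83 on the siControl arrays and 7.81 to 7.84 on the siTIG1 arrays.

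The genes that drive the acute-phase response were listed separately. Of 28 listed cytokines, receptors and transcription factors 24 were measured, and 4 rose (16.7%, against 3.15% of all genes), 1 fell (against 4.17% of all genes) and 19 did not pass, with a median of -0.02. In the fit without siControl replicate 3, 9 were higher (37.5%, against 12.3%) and 4 lower (16.7%, close to the 14.9% of all genes). IL6ST, gp130, the shared signalling chain of the IL-6 receptors, read 11.71, 11.74 and 11.78 against 12.00, 12.18 and 12.13 and rose by 0.36 ± 0.06 (SE, limma adjusted p = 0.026). STAT3, the transcription factor that gp130 activates, read 11.80, 11.87 and 11.68 against 12.22, 12.46 and 12.37 and rose by 0.57 ± 0.08 (SE, limma adjusted p = 0.015). The groups of both genes were apart, and siControl replicate 3 lay within 0.16 of the mean of the other controls.

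NFKBIZ, which encodes the nuclear NF-kB cofactor IkB-zeta, had the largest rise of this list, 2.87-fold (log2 1.52 ± 0.13 SE, limma adjusted p = 0.0031), from 10.55, 10.61 and 10.15 to 12.03, 11.96 and 11.89. IFNGR1, a chain of the interferon-gamma receptor, rose by 0.52 ± 0.06 (SE, limma adjusted p = 0.0084), while IFNGR2, the other chain, differed by -0.09. IL1RAP, the accessory chain of the IL-1 receptor, read 10.71, 10.76 and 10.78 against 9.95, 9.83 and 9.97 and fell by 0.84 on the log2 scale (SE 0.06, limma adjusted p = 0.0023). IL1R1, the chain that binds IL-1, differed by 0.84 ± 0.21 (SE) and did not pass (limma adjusted p = 0.065), with siControl replicate 3 as the lowest control. It passed without that array (0.59 ± 0.05 SE, limma adjusted p = 6.06e-05). The ligands IL1A and IL1B were high on siControl replicate 3, by 3.93 and 1.97 over the other controls, on the same array as CD55, LCN2, C3 and CFB. With all arrays neither passed (limma adjusted p = 0.39 for each), and without that array both were lower in the siTIG1 group, by -0.50 (limma adjusted p = 0.019) and -0.25 (limma adjusted p = 0.018). The ligands IL6 and LIF were also high on siControl replicate 3, by 0.83 and 1.01. With all arrays they differed by -0.02 and -0.51 and did not pass (limma adjusted p = 0.96 and 0.35). Without that array IL6 was higher, by 0.25 (limma adjusted p = 0.042), and LIF lower, by -0.18 (limma adjusted p = 0.047). The part of these ligands in the values of that array was not tested.

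**Figure D5:**
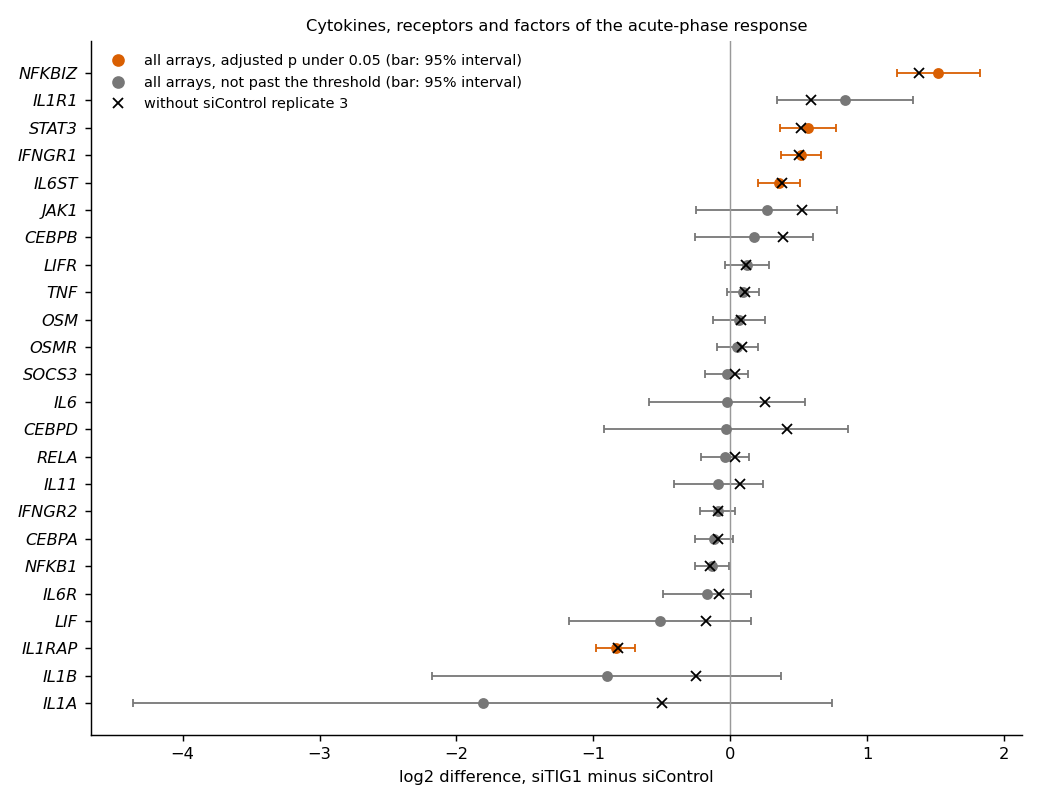
Log2 difference, siTIG1 minus siControl (horizontal axis), of the 24 measured cytokines, receptors and factors of the acute-phase response (vertical axis). Points are the fit with all arrays and bars its 95% interval, orange points passed the threshold, and crosses are the differences without siControl replicate 3. NFKBIZ, STAT3, IFNGR1 and IL6ST lie to the right and IL1RAP to the left, and IL1A and IL1B have the widest intervals.

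The labelled cell type was checked with epithelial markers, of which 9 of 10 were measured, with mean log2 levels of 8.95 to 14.42. KRT19, a keratin, rose by 1.00 ± 0.15 (SE, limma adjusted p = 0.016) and 8 did not pass. Leaving out siControl replicate 3, 6 of the 9 epithelial markers were higher (66.7%, against 12.3% of all genes) and none was lower. These were CDH1, KRT8, KRT19, KRT5, CLDN4 and ELF3, and their part in the results was not tested. Among 9 fibroblast markers DCN, decorin, rose by 1.63 ± 0.15 (SE, limma adjusted p = 0.0044) and 8 did not pass. DCN was higher by 1.66 ± 0.14 (SE) without siControl replicate 3, and 2 of the 9 markers were then higher (22.2%, against 12.3% of all genes). The mean level of that list was 8.36 to 8.43 on the siControl arrays and 8.63 to 8.74 on the siTIG1 arrays. Its median difference was only 0.02 with all arrays, with 5 markers of positive sign and 4 of negative sign. The part of that list in the rises of C1R, C1S, CFI and SERPINA3 was not tested. FAP, a membrane protease of activated fibroblasts, read 11.13, 11.13 and 10.17 against 11.71, 11.64 and 11.85. It was higher on every siTIG1 array, by 0.92 ± 0.26 (SE, limma adjusted p = 0.10), and passed without siControl replicate 3 (0.60 ± 0.07 SE, limma adjusted p = 0.00017). The other 7 fibroblast markers, the collagen genes among them, passed in neither fit. None of 7 endothelial markers passed with or without that array.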

How the data were processed

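The deposited table holds, for each probe set of an Affymetrix HG-U133 Plus array, its log2 signal in every sample. The authors' log2 values were used as deposited. Base 2 was taken from their range, 4.28 to 15.59, and is not written in the table. MAS5 and RMA are named in the submitters' processing notes without a role or version, and the tool behind the table was not given in the sources used here. Medians of 7.87 to 7.90 per array show that the arrays were already normalized to each other, so any general rise or fall of expression would be hidden. Without detection calls, signals are not shown to lie above background, and values of different probe sets were not set against each other.

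Of 54613 probe sets that are not controls, 41091 had 1 symbol in the platform annotation, 1801 several and 11721 none listed. Symbols were updated by gene number to RefSeq (GRCh38.p14), which held 19735 of 19775 genes. Each gene was represented by its probe set with the highest mean. Linear models (lmFit with eBayes, no block, 2-sided) from limma 3.58.1 under R 4.3.3 were fitted to all genes, with Benjamini-Hochberg adjustment and a threshold of 0.05, after a check on simulated data. Every adjusted p is from limma. Differences are siTIG1 minus siControl on the log2 scale. With 3 arrays against 3, their number limits the precision.

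Members, lists and motifs were chosen with earlier results of these data known. Members were given by array where they passed, where groups were apart by at least 0.5 on the log2 scale, or where they were among the 8 with the highest mean. Others given by array, such as C2, C5, SERPING1, C5AR1 and FGG, were chosen after their values were seen, as were the markers singled out. Of the pathway lists up to 8 genes that passed were to be named. Alternatives were other normalizations, a filter on dim genes, other choices of probe set, another variance model, the replicate number as a block, and each array left out. Same-numbered arrays did not deviate together (correlations of -0.08, 0.02 and -0.04), so no block was used.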

Additional observations from a re-analysis of the deposited data

How the results depend on the processing

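The 6 rises were called, and no member changed its call, under quantile normalization, median centring, averaged probe sets, every probe set, x_at probe sets last and trended robust variances. The same held for the 21 members at or above the dim-gene level of 7.51. No member that passed in either fit changed sign under any alternative. With the replicate block 104 genes were higher and 134 lower, 3 members were higher, with the calls of C1R, CLU and C3AR1 lost, and 2 genes of the pathway lists were called. No label says whether same-numbered arrays belong together, and whether these lower counts reflect a weaker effect was not tested. With single arrays left out, 102 to 2423 genes were higher and 120 to 2952 lower, 3 to 10 members were higher and 0 to 1 lower, and 2 to 16 genes of the pathway lists passed, against 5 with all arrays. The highest of these counts came without siControl replicate 3. On its representing probe set the TIG1 difference ran from -1.09 to -0.46 with single arrays left out, and was -1.11 as the mean of 3 probe sets, without passing. Both other TIG1 probe sets passed without siControl replicate 3. Signals near background limit what dim members can show.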

Other observations

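Pentraxin 3 (PTX3), a soluble pattern recognition protein that binds C1q, belongs to the wider acute-phase list and read 9.93, 10.18 and 11.05 on the siControl arrays and 10.51, 10.39 and 10.55 on the siTIG1 arrays. The siTIG1 arrays lay between the first 2 controls and the third, as for C3 and CFB. PTX3 differed by 0.10 ± 0.28 (SE, limma adjusted p = 0.88) with all arrays and by 0.43 ± 0.08 (SE, limma adjusted p = 0.0035) without siControl replicate 3. CEBPB and CEBPD, the C/EBP factors of the acute phase, were also high on that array, by 0.64 and 1.34 over the other controls. Without it they were higher by 0.39 (limma adjusted p = 0.00083) and 0.42 (limma adjusted p = 0.0079) in the siTIG1 group, and with it neither passed (limma adjusted p = 0.64 and 0.97). JAK1, the kinase shared by gp130 and interferon receptors, differed by 0.27 with all arrays and by 0.53 (limma adjusted p = 0.00011) without that array. SOCS3, an inhibitor of gp130 signalling, differed by -0.02 with all arrays, with a 95% interval from -0.18 to 0.13, and by 0.03 without that array.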
